A study of Mus musculus with 4 samples.

Results

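10 genes of the response to amino acid shortage were followed in fetal mouse gonads: Asns, Nupr1, Ddit3, Trib3, Atf4, Atf3, Psat1, Phgdh, Shmt2 and Mthfd2. The members were taken by gene symbol from the platform annotation, which gave 10 probes for 10 genes among 17664 spots. Of these, 9 had values on all 4 arrays, as had 12264 probes in all. They were selected on measured values, namely log2 ratios of these same arrays in both comparisons, so their values are given as a description, with no test.

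Cells that run short of an amino acid, or that accumulate unfolded protein, phosphorylate the translation initiation factor eIF2. General translation then slows, while translation of Atf4 mRNA goes on, and the transcription factor ATF4, often paired with a C/EBP protein, binds a composite C/EBP-ATF element in its target genes. The targets include regulators such as Ddit3, Trib3, Atf3 and Nupr1, and enzymes that make asparagine, serine, glycine and folate-bound one-carbon units. Serine and one-carbon enzymes are also used by cells that divide quickly.

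3 kinds of RNA pool were compared, all from gonads at 12 days post coitum, freed of the mesonephros. They were XY wild type, XX wild type and XX Wnt4-/-, which lacks a secreted factor that the fetal ovary needs. More than 100 embryos of each kind were pooled in several groups before RNA isolation. On 2 arrays XY wild type RNA, and on 2 arrays XX Wnt4 null RNA, was hybridised against XX wild type RNA, with the dyes swapped within each pair; replicate 1 carried the XY or null RNA in Cy5 and replicate 2 in Cy3. Whether a pair of arrays held separate RNA extracts is not stated, so the SD (n = 2 arrays throughout) may be technical. As the dyes were swapped within a pair, each SD also holds any offset of a gene between the dye orientations. It is therefore not a spread of biological replicates alone. All values below are log2 ratios to XX wild type, each array centred on its median, and a ratio carries no expression level, so the defining markers of the gonad could not be checked for presence. In whole gonads a lower ratio can mean fewer cells of a type or less RNA per cell, and these cannot be told apart.

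The direction of the ratios is likely but not settled. No label names the numerator. As deposited, XY replicate 1 and Wnt4 null replicate 1, of the same dye orientation, correlated at r = -0.62 over 12264 spots. XY replicate 2 and Wnt4 null replicate 2, also of the same orientation, did so at r = 0.68. Turning XY replicate 1 changes the sign of the former value. XY replicate 1 was turned because the Y-linked gene Eif2s3y and Xist, the transcript of the inactive X, ran opposite to their sex on it. After the turn the first Eif2s3y probe and Xist were at 2.22 and -1.67 there, and at 2.26 and -1.20 on replicate 2. Another Eif2s3y probe read 0.64 on replicate 1 after the turn but -0.45 on replicate 2. On the null arrays, where both RNAs are XX, the first Eif2s3y probe read 1.53 and 0.22. The other probe read 0.70 and -1.33 there, and Xist -0.48 and 0.49. The other 3 columns were kept, with XX wild type as denominator. The 2 Wnt4 null arrays then correlated at r = -0.46, against r = 0.056 for the XY arrays. Wnt4 itself stood at -0.081 and -0.18 on the null arrays, but where its probe lies relative to the deletion is not known, so this checks nothing. Of 6 measured markers of ovarian supporting cells, 5 lay below 0 on both null arrays as kept. Among them Fst read -3.02 and -2.21, Irx3 -2.67 and -2.70, and Sp5 -1.81 and -1.35. The other, Msx1, was split at -1.76 and 0.42. Of 7 stroma markers, 7 lay above 0 on both, among them Tcf21 at 1.15 and 1.27. Of 6 endothelial markers, 3 lay above 0 on both, among them Thbd at 1.70 and 1.95, and 1 lay below. Pecam1, at -0.18 and 0.39, and Tie1, at -0.063 and 0.21, were split. If both arrays of a pair were turned, every value of that pair would keep its size and change its sign. If Wnt4 null replicate 1 alone were turned, every gene with its null arrays on one side would have them on opposite sides and the reverse, by construction; the null means that members would then have, and the counts of the lists, are given with each. Spots were named by an order inferred from the values, in which the rows of a printed block are read as its columns.

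The sequences upstream of the annotated starts show which members carry the letters of the C/EBP-ATF element close to the gene. The core TGATGNAA was searched on both strands in the 250 bases before each RefSeq start (build GRCm38.p6); all 10 members had an entry, and Asns, Nupr1 and Atf3 each held 1 match. Among all 32851 windows of that length, 3.45% held it. Asns and Nupr1 are shown whole because they were the lowest and the highest member in the null comparison, and Atf3 as the 30 bases around its match. All 3 lie on the minus strand, at chr6:7693210-7693459, chr7:126625471-126625720 and chr1:191183425-191183454, and are written 5′ to 3′ along the gene. Capitals mark the match, which reads TGATGAAA in Asns and, as the reverse complement, TTGCATCA in Nupr1 and Atf3.
Asns: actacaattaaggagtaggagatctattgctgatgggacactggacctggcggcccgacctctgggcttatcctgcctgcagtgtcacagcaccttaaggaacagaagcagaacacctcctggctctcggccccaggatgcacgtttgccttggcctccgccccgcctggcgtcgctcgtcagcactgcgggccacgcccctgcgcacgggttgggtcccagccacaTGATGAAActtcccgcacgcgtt
Nupr1: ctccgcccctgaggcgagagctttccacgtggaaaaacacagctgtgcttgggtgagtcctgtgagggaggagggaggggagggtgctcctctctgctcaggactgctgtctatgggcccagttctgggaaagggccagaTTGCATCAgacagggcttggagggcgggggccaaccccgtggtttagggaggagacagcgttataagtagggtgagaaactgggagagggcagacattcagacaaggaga
Atf3: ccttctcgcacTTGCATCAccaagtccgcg
The match lay 23 to 16 bases before the start of Asns, and 110 to 103 bases before the start in both Nupr1 and Atf3. No match in the windows of the other 7 says only that these letters are not there.

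Asns encodes asparagine synthetase, which makes asparagine from aspartate and glutamine and is a standard readout of ATF4 activity. Its probe read -1.09 and -1.33 in XY gonads, and -0.76 and -0.95 in Wnt4 null gonads. All 4 values were below 0, as for 7.61% of all probes. Both XY values lay below both null values, as for 10.3% of all probes. In XY gonads the mean was -1.21 ± 0.16, 2.31-fold lower than XX wild type and the 55th lowest of 12264 probes. In Wnt4 null gonads it was -0.85 ± 0.13, 1.81-fold lower and the 48th lowest. Asns was at least 1.5-fold lower on each of the 4 arrays, as were 0.351% of all probes. It was also the member with the steadiest large value: its SD lay below the median SD over all probes, which was 0.21 in XY and 0.28 in the null comparison. With both arrays of a pair turned it would be the 55th and the 48th highest. With null replicate 1 alone turned, its null values would be 0.76 and -0.95, and the mean of -0.095 ± 1.21 would lie inside the spread.

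Nupr1 encodes a small stress-induced nuclear protein. It stood on the other side of XX wild type, at 0.062 and 1.21 on the XY arrays and at 0.68 and 1.95 on the null arrays. All 4 values were above 0, as for 7.49% of all probes, but the arrays of each pair lay far apart. The XY mean of 0.64 ± 0.81 was smaller than its SD. The null mean of 1.32 ± 0.90, or 2.49-fold, was the 12th highest of 12264 probes. In both comparisons replicate 1 lay below replicate 2, by 1.15 in XY and by 1.27 in the null, so the offset went with the dye orientation. Nupr1 passed 1.5-fold on both null arrays, where 0.554% of probes did so upward, and on 1 of the XY arrays. With null replicate 1 alone turned, its values there would be -0.68 and 1.95, with a mean of 0.63 ± 1.86.

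Ddit3 encodes CHOP, a C/EBP-family factor of prolonged stress, and was measured on replicate 1 of each comparison alone. It read 0.56 in XY and -0.59 in Wnt4 null gonads. As kept, the values are on opposite sides of XX wild type, with no second array to set against either. With null replicate 1 alone turned, the null value would change its sign and lie on the same side as the XY value.

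**Figure D1:**
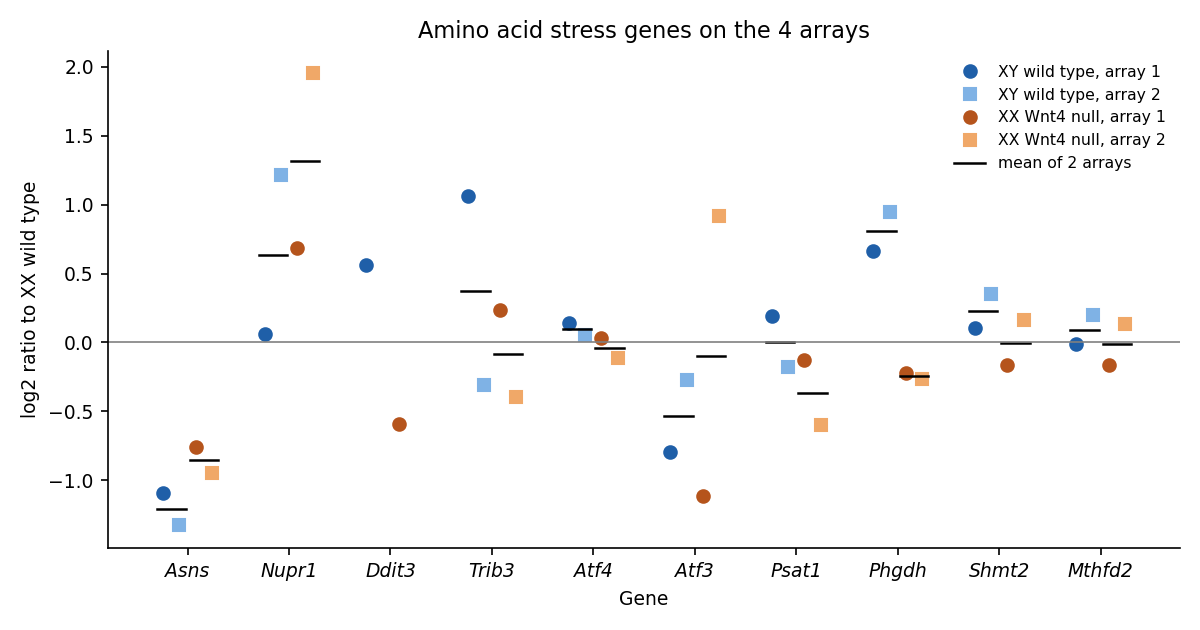
Log2 ratio to XX wild type (vertical axis) of the 10 amino acid stress genes on each array; circles are replicate 1, squares replicate 2, and black bars the mean of 2 arrays. Asns lies below 0 on all 4 arrays (-0.76 to -1.33), Nupr1 above 0 on all 4, Phgdh above 0 in XY and below 0 in Wnt4 null, and Ddit3 has 1 array per comparison.

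Phgdh encodes phosphoglycerate dehydrogenase, the first enzyme of serine synthesis. It read 0.67 and 0.95 in XY gonads and -0.22 and -0.27 in Wnt4 null gonads. The arrays of a pair were close, and the groups lay on opposite sides of 0 without overlap. The XY mean was 0.81 ± 0.20, 1.75-fold higher than XX wild type and the 160th highest of 12264 probes. The null mean was -0.25 ± 0.032, the 966th lowest; with null replicate 1 alone turned it would be -0.023 ± 0.35. A pattern of both XY arrays above 0 and both null arrays below 0 was seen for 2.45% of probes. Phgdh passed 1.5-fold on both XY arrays, where 1.37% of probes did so upward.

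Psat1, the aminotransferase that follows Phgdh in serine synthesis, had no such split. It read 0.19 and -0.18 in XY gonads, a mean of 0.0059 ± 0.26. In the null gonads it read -0.13 and -0.60, below 0 on both arrays, with a mean of -0.37 ± 0.33 (-0.24 ± 0.52 with null replicate 1 alone turned). Psph, the phosphatase of the last step of serine synthesis and no member, averaged -0.085 ± 0.085 in XY and 0.016 ± 0.20 in the null gonads. The enzymes of serine synthesis therefore had unlike ratios in XY gonads, with Phgdh alone of these 3 above 0 on both arrays.

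Shmt2 and Mthfd2 are the mitochondrial enzymes that turn serine into glycine and one-carbon units. Shmt2 read 0.10 and 0.35 in XY gonads, and -0.17 and 0.16 in null gonads. Its means were 0.23 ± 0.18 and -0.0016 ± 0.23. Mthfd2 read -0.011 and 0.20 in XY, and -0.16 and 0.14 in the null, with means of 0.092 ± 0.15 and -0.013 ± 0.21. Both had null arrays of opposite sign; with null replicate 1 alone turned their null means would be 0.17 ± 0.0022 and 0.15 ± 0.019.

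Atf4 mRNA had small ratios on every array; its protein is made from existing mRNA under stress, so its transcript is not a direct measure of the response. It read 0.14 and 0.051 in XY, and 0.035 and -0.11 in the null gonads. No array was further than 0.14 from 0, a limit that no other member kept on all 4 arrays. The means were 0.095 ± 0.063 and -0.037 ± 0.10, the latter -0.072 ± 0.053 with null replicate 1 alone turned.

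Trib3 and Atf3 had arrays that lay far apart. Trib3 encodes a pseudokinase that damps ATF4 and AKT signalling. It read 1.06 and -0.31 in XY, and 0.23 and -0.39 in the null gonads. Its means, 0.37 ± 0.97 and -0.080 ± 0.44, were smaller than their SD. In the null it would read -0.23 and -0.39 with replicate 1 alone turned, both below 0, with a mean of -0.31 ± 0.11. Atf3 encodes a transcription factor of the early stress response. It read -0.79 and -0.27 in XY gonads, a mean of -0.53 ± 0.37 and the 378th lowest of 12264 probes. In the null gonads its values of -1.11 and 0.92 gave -0.095 ± 1.44, the widest spread of any member. With null replicate 1 alone turned, its mean would be 1.02 ± 0.13, the 169th highest.

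The members did not share a direction. In XY gonads 4 of the 9 measured on both arrays were above 0 on both, 2 were below 0 on both and 3 had arrays of opposite sign, with a median of means of 0.095. Over all probes 21.8% were above 0 on both XY arrays and 21.9% below, with a median of 0.0027. In Wnt4 null gonads 1 member was above 0 on both arrays, 3 were below and 5 had opposite signs, with a median of -0.080; over all probes the shares were 15.7% and 16.2%, and the median 0.0020. By the 1.5-fold rule on both arrays, 1 member was higher and 1 lower in each comparison, against backgrounds of 2.69% of probes in XY and 1.05% in the null, either direction. With null replicate 1 alone turned, 3 members would be above 0 on both null arrays, 2 below and 4 of opposite sign, with a median of -0.023; over all probes the shares would be 32.9% and 35.2%. Past 1.5-fold on both null arrays would then be Atf3, upward, and neither Asns nor Nupr1, against a background of 5.76%. As the choice of members used these contrasts, nothing is read from those counts.

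**Figure D2:**
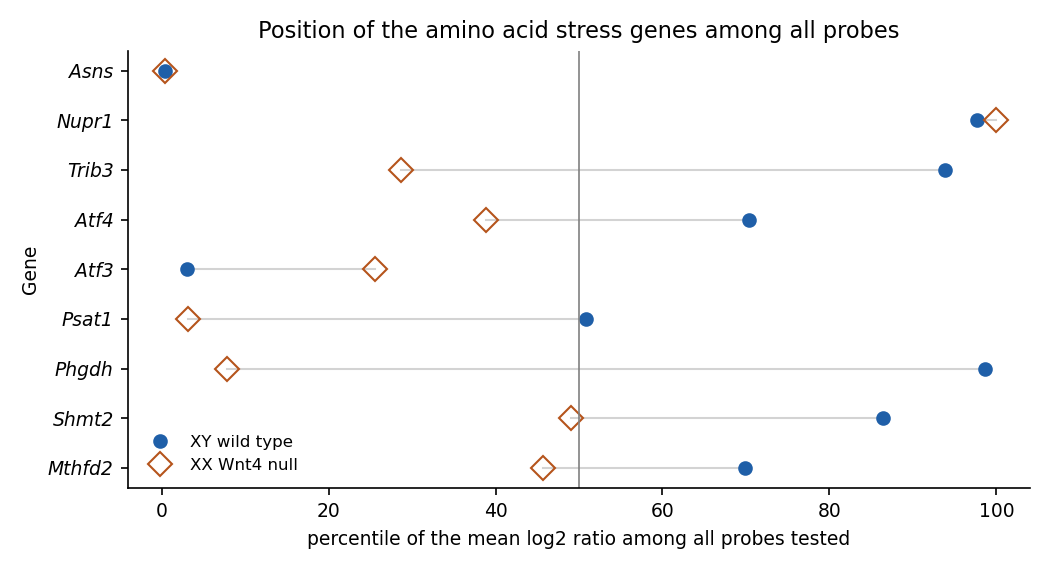
Percentile (horizontal axis) of the mean log2 ratio of each of 9 members among 12264 probes, in XY wild type (filled circles) and XX Wnt4 null (open diamonds). Asns lies at percentiles 0.440 and 0.383 and Nupr1 at 97.7 and 99.9, while Phgdh lies at 98.7 in XY and at 7.87 in the null.

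Ordered from highest to lowest in XY, the members ran Phgdh, Nupr1, Trib3, Shmt2, Atf4, Mthfd2, Psat1, Atf3 and Asns. The array ranges of neighbours overlapped down to Psat1; Atf3 lay apart from Psat1, and Asns apart from Atf3. In the null gonads Nupr1 came first and lay apart from Shmt2, which was followed by Mthfd2, Atf4, Trib3, Atf3, Phgdh and Psat1 with overlapping ranges. Asns came last there too, apart from Psat1. This order of the null means depends on the direction kept: with null replicate 1 alone turned it would run Atf3, Nupr1, Shmt2, Mthfd2, Phgdh, Atf4, Asns, Psat1 and Trib3, and the ranges of all neighbours would overlap.

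The comparisons share XX wild type as reference, so XY and Wnt4 null gonads can be set against each other only through it. Taking XY minus null between arrays of the same dye orientation, Phgdh differed by 0.89 and 1.22, a mean of 1.05 ± 0.23. Psat1 differed by 0.32 and 0.42. Asns differed by -0.33 and -0.38, and Nupr1 by -0.62 and -0.74. For Nupr1 the SD of this difference was 0.084, against 0.81 and 0.90 within the comparisons. Atf3 differed by 0.32 and -1.19 and Trib3 by 0.83 and 0.085, so the spread of these genes remained. Over all probes the median SD of the difference was 0.16. Both XY arrays lay above both null arrays for 10.1% of probes and below for 10.3%. All of these differences assume the kept direction of the null pair, and none was tested.

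**Figure D3:**
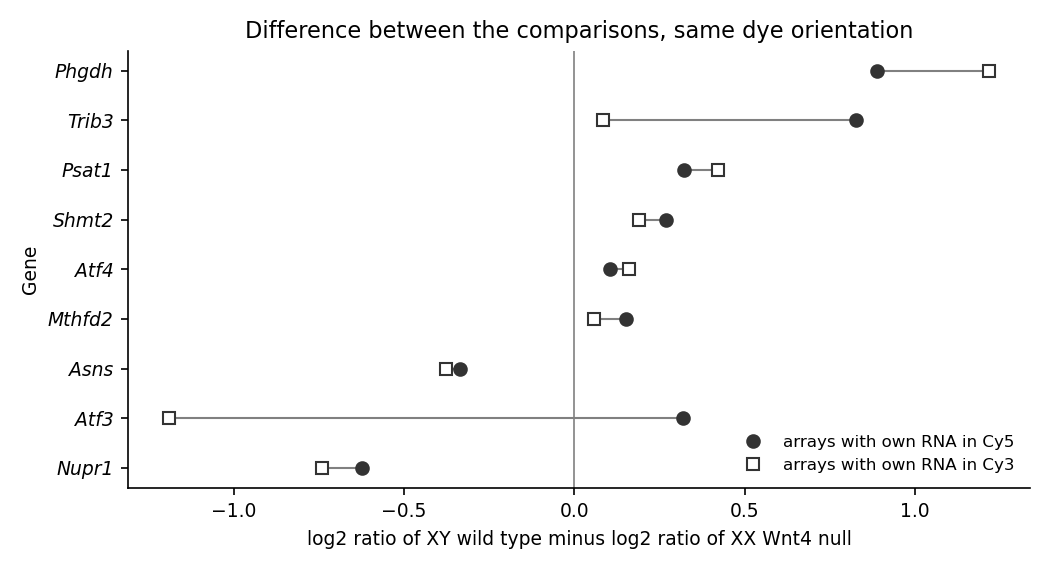
XY log2 ratio minus Wnt4 null log2 ratio (horizontal axis) for 9 members, from arrays with the XY or null RNA in Cy5 (filled circles) and in Cy3 (open squares), joined by a line. Phgdh is farthest right at 0.89 and 1.22, Nupr1 is at -0.62 and -0.74, and Atf3 is split between 0.32 and -1.19.

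Other genes of the same response, of endoplasmic reticulum stress and of tissue handling and heat shock were looked at in 7 lists of 124 genes. Of these, 91 had values on all 4 arrays, 16 of them handling and heat shock genes. Limma called 0 of the 91 in either comparison, with or without a dye term, at a Benjamini-Hochberg adjusted p under 0.05 over all 12264 probes. Without the dye term it called 0 probes in all, 0.0% of each comparison, and with it 2.69% in XY (1.36% higher and 1.33% lower) and 0.196% in the null (0.130% and 0.0652%). At an unadjusted p under 0.05, 12 of the 91 passed in XY without the dye term and 22 with it, and 3 and 16 in the null. These are 13.2% and 24.2% of the list genes in XY, beside 6.20% and 20.4% of all 9757 named genes. In the null they are 3.30% and 17.6%, beside 3.14% and 12.9%. The lists were chosen with earlier results of these data known, so nothing is read from these shares. Across the 91 genes the median was 0.065 in XY and 0.022 in the null, beside 0.0032 and 0.0046 over all named genes. In XY 34 of the 91 were above 0 on both arrays and 17 below, beside 2180 and 2136 of all 9757 named genes. In the null gonads 20 of the 91 were above 0 on both arrays and 18 below, beside 1560 and 1537 of all named genes. With null replicate 1 alone turned it would be 38 and 15, beside 3393 and 3267. These counts over all named genes are also the background for each list and marker set below.

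Of 8 amino acid transporters, 3 were above 0 on both XY arrays and 0 below, with a median of 0.074. Slc7a5, the light chain of the leucine transporter, averaged 0.58 ± 0.29 in XY (limma adjusted p = 0.0849 with the dye term). Slc43a1 averaged 0.14 ± 0.17 and Slc1a5, a glutamine transporter, 0.053 ± 0.049. In the null gonads 1 transporter was above 0 on both arrays and 1 below; they were Slc6a9, a glycine transporter, at 0.40 ± 0.52 and Slc3a2, the heavy chain partner of Slc7a5, at -0.19 ± 0.15. This null count would be 4 above and 2 below with null replicate 1 alone turned.

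Of 10 other enzymes of amino acid and one-carbon metabolism, 3 were above 0 and 4 below 0 on both XY arrays, and 1 and 4 on both null arrays (2 and 3 with null replicate 1 alone turned). Cth, which makes cysteine from cystathionine and is an ATF4 target, was below 0 on all 4 arrays as Asns was, at -0.28 and -0.83 in XY and -0.70 and -0.61 in the null. Its means were -0.56 ± 0.39 and -0.65 ± 0.069 (limma fit holding the dye term, adjusted p = 0.155 and 0.229). Its null arrays would stand at 0.70 and -0.61 with null replicate 1 alone turned, on opposite sides as those of Asns would. Gldc, of the glycine cleavage system, averaged -0.56 ± 0.081 in XY. Tyms, thymidylate synthase, averaged 0.30 ± 0.046 in XY and 0.12 ± 0.079 in the null. Aldh18a1, of proline synthesis, averaged 0.28 ± 0.13 in XY and -0.14 ± 0.0087 in the null, and Got1 -0.27 ± 0.16 in the null. None of these passed limma.

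The 15 transfer RNA synthetases, which charge tRNA with amino acids and many of which are ATF4 targets, had ratios near 0. In XY 7 were above 0 on both arrays and 2 below, with means from -0.14 to 0.30 and a median of 0.065. The highest were Yars at 0.30 ± 0.13, Tars at 0.25 ± 0.15, Lars at 0.22 ± 0.077 and Wars at 0.20 ± 0.061. In the null 1 was above 0 and 7 below, with means from -0.28 to 0.19 and a median of -0.098. Sars averaged -0.28 ± 0.30 there, Cars -0.19 ± 0.050, Iars -0.12 ± 0.026 and Yars 0.19 ± 0.22. With null replicate 1 alone turned, 3 were above 0 and 4 below. Over all probes 21.8% were above 0 and 21.9% below on both XY arrays, and 15.7% and 16.2% on both null arrays. The difference of the synthetases between the comparisons was not tested.

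Of 15 further targets and regulators, 4 were above 0 and 5 below on both XY arrays (median -0.096), and 5 and 1 on both null arrays (median 0.087), or 8 and 1 with null replicate 1 alone turned. Stc2, a secreted glycoprotein induced by ATF4, averaged 0.78 ± 0.19 in XY and 0.50 ± 0.61 in the null. Trib1, a relative of Trib3, averaged 0.54 ± 0.13 in XY. Gadd45b, a stress sensor gene, averaged -0.75 ± 0.17 in XY and 0.23 ± 0.17 in the null. Cebpd, a C/EBP factor gene, averaged 0.58 ± 0.16 in the null, Ddit4 0.15 ± 0.0034 there, and Fgf21 -0.40 ± 0.34 in XY. Their limma adjusted p with the dye term was 0.0667 or more.

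The eIF2 arm itself had 8 measured genes, with 3 above 0 and 3 below on both XY arrays and 2 and 2 on both null arrays (3 and 1 with null replicate 1 alone turned). Eif2s2, the beta subunit of eIF2, averaged 0.67 ± 0.061 in XY and 0.42 ± 0.22 in the null (limma fit holding the dye term, adjusted p = 0.0562 and 0.253). Eif2ak3, the kinase PERK that senses unfolded protein, averaged -0.59 ± 0.29 in XY and -0.45 ± 0.37 in the null. Eif2ak2 averaged -0.24 ± 0.26 in XY. Eif2s3x, the X-linked gamma subunit, averaged -0.18 ± 0.16 in XY and 0.26 ± 0.061 in the null. Eif2b1 averaged -0.053 ± 0.068 in the null.

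Endoplasmic reticulum stress genes leaned to positive ratios in XY, where 9 of 19 were above 0 on both arrays and 1 below, with a median of 0.088. Over all genes 2180 of 9757 were above and 2136 below. Hspa5, the chaperone BiP, averaged 0.68 ± 0.21, Calr 0.61 ± 0.25, Pdia3 0.53 ± 0.074 and Hsp90b1 0.48 ± 0.36. None passed limma (adjusted p = 0.0663, 0.0961, 0.0770 and 0.125 in the fit holding a dye term). In the null 6 of 19 were above 0 on both arrays and 1 below (median 0.092), or 9 and 3 with replicate 1 alone turned; Hspa5 averaged 0.34 ± 0.46, Pdia3 0.29 ± 0.0058, Sdf2l1 0.27 ± 0.081 and Hsp90b1 0.15 ± 0.12.

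Handling of tissue also raises immediate early and heat shock genes, and of 16 measured, 5 were above 0 and 2 below on both XY arrays and 4 and 2 on both null arrays. The null count would be 9 and 1, and its median 0.16 in place of 0.057, with null replicate 1 alone turned. Egr1 averaged 0.75 ± 0.091 in XY and 0.93 ± 0.56 in the null, Ier2 0.66 ± 0.017 and 0.33 ± 0.23, and Jun 0.27 ± 0.32 in XY. Ier3 averaged 0.30 ± 0.065 in the null, and the heat shock genes Hsp90aa1 in XY and Hsph1 in the null -0.24 ± 0.092 and -0.21 ± 0.032. Fos, at -0.53 and 0.85 in XY and -0.83 and 1.64 in the null, had lower values on replicate 1 in both comparisons. The part of handling in the members' values was not tested.

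**Figure D4:**
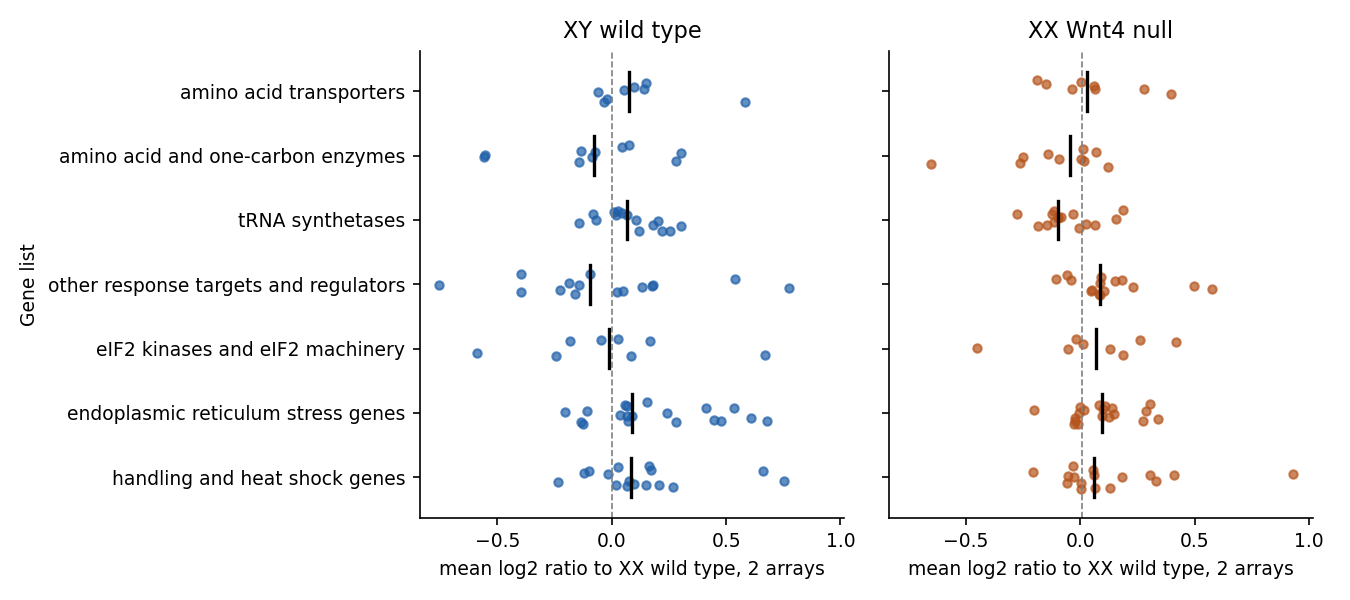
Mean log2 ratio to XX wild type (horizontal axis, mean of 2 arrays) of each measured gene in 7 lists, left for XY wild type and right for XX Wnt4 null; points are genes (vertical scatter within a list is for legibility), black bars list medians, dashed lines the median of all named genes. List medians lie between -0.098 and 0.092, and the widest single gene is Egr1 at 0.93 in the null.

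Markers of the cell types of the gonad and its surroundings were set beside these values. Germ cell markers were below 0 on both XY arrays for 6 of 7 genes (means from -1.96 to 0.34, median -0.52) and on both null arrays for 3 of 7 (median -0.15). Ovary supporting cell markers were below 0 on both arrays for 5 of 6 genes in each comparison, with medians of -1.68 and -1.70. Stroma markers were above 0 on both arrays for 7 of 7 genes in each, with medians of 0.82 and 0.65. Macrophage markers had medians of -0.032 in XY and 0.49 in the null, red blood cell markers -0.0026 and 0.063, endothelial markers 0.15 and 0.24, mesonephric duct markers -0.11 and -0.0037, fetal Leydig cell markers 0.30 and 0.71, and Sertoli markers 1.73 and 0.32. The part of cell make-up in the ratios of Asns, Nupr1 and Phgdh was not tested.

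By Euclidean distance over the 4 arrays, the named probes nearest to Asns among 10441 were Itpr2, an inositol trisphosphate receptor gene (distance 0.103), Bace2, a protease gene (0.173), Ifnar1, an interferon receptor gene (0.250), and Timm8a1, of mitochondrial import (0.275). Itpr2 read -1.04 and -1.31 in XY and -0.77 and -0.86 in the null. Nupr1 had no neighbour as close: Gsta3, a glutathione transferase gene, was at 0.632, and Hes1, Tnc and Heyl followed at 0.662, 0.691 and 0.708. Ddit3 could not be placed, as it had values on 2 arrays.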

How the data were processed

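The authors deposited 1 log2 ratio of the dyes per spot and array, with blanks for spots without a value. Base 2 was read from the values, because the lowest deposited value, on XY replicate 1, equals log2 of 0.01; the sources used here do not name a normalization, and no spot intensities were used. Spots with values numbered 12866 and 13967 on XY replicates 1 and 2, and 14131 and 14533 on Wnt4 null replicates 1 and 2; deposited medians were -0.0019, -0.017, 0.0084 and -0.039. Each array had thus been centred near 0 by an unnamed step; the scale is inferred and the direction unsettled. The number of arrays limits the precision.

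Gene names came from the platform annotation (14010 of 17664 spots had 1 symbol, 13 several, 3641 none), updated by Entrez identifier through RefSeq (GRCm38.p6; 13908 matched, 0 altered). XY replicate 1 was negated, and each array was centred on its median. Limma 3.58.1 in R 4.3.3 (lmFit, eBayes; 1 coefficient per comparison, 2 residual degrees of freedom) was fitted over 12264 probes and tested on simulated data; two-sided p-values were Benjamini-Hochberg adjusted. The dye term, other centrings, scaling, directions, spot order and leaving out arrays were alternatives. Probes of a gene were averaged in lists. Members, lists and the rule for named genes were chosen with earlier results of these data known. By that rule every member is described, with up to 4 genes per list and comparison that had the largest mean among those with the same sign on both arrays; Psph and Fos were picked after their values were seen.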

Additional observations from a re-analysis of the deposited data

Results flagged for a closer look

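Some named genes had both XY arrays on one side of XX wild type and both Wnt4 null arrays on the other. The difference between the comparisons was not tested, and 473 of 9757 named genes (4.85%) showed such a pattern. Among the members this was Phgdh, whose XY mean exceeded its null mean by 1.05. Of the list genes described above, Aldh18a1 (XY minus null 0.42), Tars (0.37), Wars (0.30) and Iars (0.14) were above in XY. Gadd45b (-0.98), Cebpd (-0.80) and Eif2s3x (-0.44) were below in XY. The lists also hold Vars, at 0.19 and 0.17 in XY and -0.13 and -0.069 in the null. Cebpg had the reverse, at -0.085 and -0.11 in XY and 0.11 and 0.069 in the null. Each of these patterns holds for the kept direction of Wnt4 null replicate 1 alone.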

How the results depend on the processing

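Limma called 0 probes in both comparisons under each centring, scaling, direction and missing-value setting tried; with the dye term it called 330 in XY and 24 in the null. Leaving out 1 array gave 0 to 1 calls in XY and 0 in the null, where the lone array is assumed to vary like the others. Past 1.5-fold on both arrays were 330 XY probes (1325 to 1488 on a single array) and 129 null probes (1482 to 1961), or 706 null probes with replicate 1 or replicate 2 of both comparisons negated. For the 9 members, XY means kept their sign in 9 with scaled arrays, 8 with deposited centring and 8 with centring in printed blocks, the exception being Psat1 (-0.0018 and -0.052); null means kept it in 9 under each. As deposited, with XY replicate 1 not turned, 5 of 9 XY means kept their sign and Asns averaged -0.12 ± 1.71. With spots in the deposited order Asns would average 0.011 in XY and 0.23 in the null, since the names rest on the exchanged order. Without XY replicate 1 or 2, 7 and 8 of 9 members and 4 and 7 of 7 list medians kept their sign; without Wnt4 null replicate 1 or 2, 6 and 7 of 9 members and 7 and 2 of 7 list medians. With replicate 1 of both comparisons negated, 6 of 9 null members kept their sign. The labels number no replicates, so arrays were paired across comparisons by dye orientation, through the dye term and the XY minus null differences.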
